A study of Mus musculus with 6 samples.

Results

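Feedback inhibitors of TGFβ signaling were examined in ATAC-seq peak lists of NMuMG cells. The genes were Smad7, Smad6, Skil, Ski, Smurf1, Smurf2, Tgif1, Bambi and Pmepa1, 9 of the 22350 protein-coding genes that could be placed beside the lists. Their regions were those with an edge within 100 kb of the annotated 5′ end of the gene (GENCODE vM1 on mm9), after intervals under 150 bp had been dropped and gaps under 1000 bp closed. The window held 80 of the 39435 regions found in the union of the 3 lists. The genes were chosen by their role.

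NMuMG is an epithelial line from normal mouse mammary gland. ATAC-seq marks open chromatin by the places where the transposase Tn5 inserts adapters. All cells spent 6 h without serum, and without insulin by the methods of the study, before treatment. Vehicle cells (HCl and BSA, 2 samples) were collected at 2 h, and cells given TGFβ1 at 5 ng/ml were collected at 2 h (2 samples) or 12 h (2 samples). A vehicle sample of 12 h was not analysed here, so treatment and the longer time without serum cannot be told apart in the 12 h list. The authors joined both replicates of a condition into 1 peak list. Every value below is therefore 1 value per condition, with no spread between replicates and no test between conditions. The lists hold no read counts, and the read totals that the study states for its libraries were not used here. Absence from a list means that no reproducible peak passed the threshold, not that the chromatin was closed.

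TGFβ binds paired type I and type II receptor kinases, which phosphorylate SMAD2 and SMAD3. These join SMAD4, enter the nucleus and bind DNA, often next to AP-1, the dimer of Jun and Fos proteins. Several genes switched on by the pathway in turn encode its inhibitors, which act at the receptor, on the SMAD proteins or on transcription. SMAD7 and SMAD6 are inhibitory SMADs, SKI, SNON (the product of Skil) and TGIF1 are nuclear corepressors, SMURF1 and SMURF2 are ubiquitin ligases, BAMBI is a decoy receptor without a kinase, and PMEPA1 is a membrane protein that holds receptor-activated SMADs.

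The lists were of unequal length over the whole genome, namely 16765 regions for vehicle, 32548 for 2 h and 33079 for 12 h. The labelled cell type was checked by the 5′ ends of marker genes. Of 6 epithelial markers, 2 were covered in vehicle, 3 at 2 h and 4 at 12 h, beside 35.9%, 41.4% and 41.6% of all protein-coding genes. With 6 genes, these counts do not set the epithelial markers apart from genes at large. Krt8 and Krt18 were covered in all lists, Cdh1 in both TGFβ lists, Cldn4 at 12 h, and Epcam and Krt7 in none. Of 9 markers of blood, endothelial, muscle and nerve cells, none was covered in vehicle or at 12 h and 1, Syn1, was covered at 2 h.

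Around the 9 genes, 40 regions were in the vehicle list, 70 in the 2 h list and 68 in the 12 h list. Of the 80 regions, 39 were in all 3 lists (48.8%, 95% Wilson interval 38.1 to 59.5), beside 38.4% of all regions. In both TGFβ lists but not in vehicle were 19 (23.8%, 15.8 to 34.1), beside 28.5% of all regions. The 2 h list alone held 11 (13.8%, 7.85 to 23.0; all regions 12.9%) and the 12 h list alone 10 (12.5%, 6.93 to 21.5; all regions 16.3%). The shares of the genes thus lay near those of the whole genome, and in each of these patterns the genome value was inside the interval. The same held against the 32785 regions within 100 kb of any protein-coding gene, of which all lists shared 42.4% and both TGFβ lists only held 26.8%. The second pattern did not keep this with only the intervals at or above the median width of their list, where both TGFβ lists only had 20 of 48 regions (41.7%, 28.8 to 55.7), beside 28.1% of all regions. These intervals cover counting error only, and regions of 1 gene are not independent of each other.

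**Figure D1:**
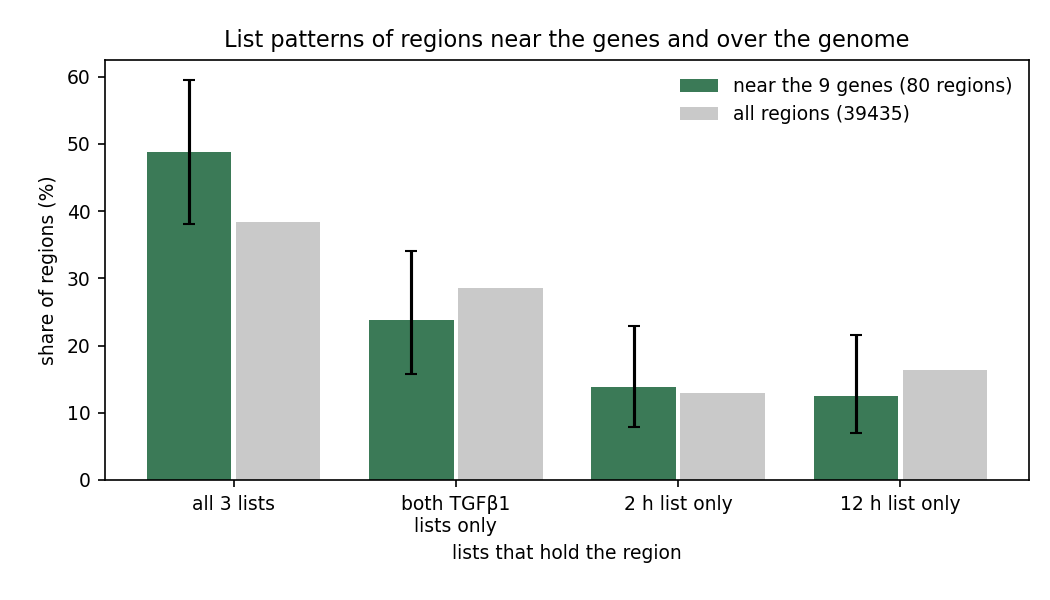
Share of regions (%) by the lists that hold them, for the 80 regions within 100 kb of the 9 genes (green, bars are 95% Wilson intervals for counting error) and for all 39435 regions (grey). Of the regions near the genes 23.8% were in both TGFβ1 lists only, beside 28.5% of all regions.

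Loss was rare. A single region, in an intron of Ski, was in the vehicle list and not in the 12 h list (1.25%, 0.221 to 6.75), beside 3.41% of all regions. None was in the vehicle list alone.

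The count of regions differed from gene to gene. Regions of both TGFβ lists only were found at 6 of the 9 genes, beside 62.7% of all protein-coding genes. There were 4 each at Smurf1 and Pmepa1, 3 each at Smad7, Ski and Tgif1, 2 at Skil and none at Smad6, Smurf2 and Bambi. The total of regions ran from 1 at Bambi to 15 at Ski, with a median of 10, while the median protein-coding gene had 5. Bambi and Smurf2, the latter with 4 regions, lay under the median of all genes and the other 7 genes above it.

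**Figure D2:**
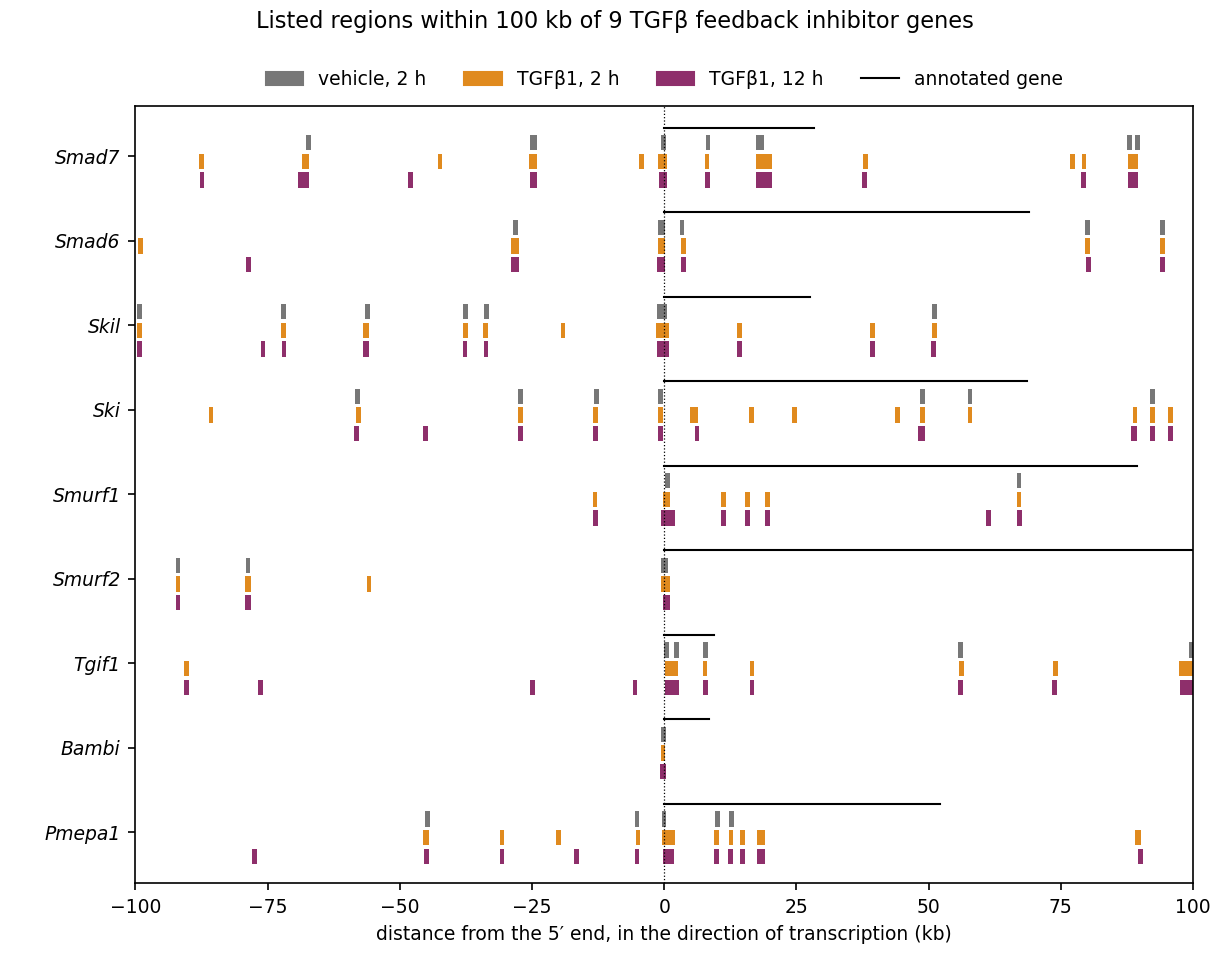
Regions of each list around the 9 genes, by distance from the annotated 5′ end in the direction of transcription (kb), with bars under 0.9 kb drawn 0.9 kb wide so that they can be seen. Black lines are the annotated genes. Pmepa1 and Smurf1 have 4 regions each in both TGFβ1 lists without a vehicle region, and Bambi has a single region in all lists.

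Within the windows, the listed bases numbered more in both TGFβ lists than in vehicle at 9 of 9 genes, beside 81.8% of protein-coding genes at 2 h and 81.9% at 12 h. The ratio of 2 h to vehicle had a median of 2.24 over the 9 genes and 1.73 over the 17229 genes with any vehicle bases. At 12 h the medians were 2.24 and 1.78. Pmepa1 had the highest ratio, with 1990 bp in vehicle, 9639 bp after 2 h and 9151 bp after 12 h, followed by Tgif1 with 2018 bp, 7822 bp and 9219 bp. Smad7 had the most listed bases, 5898 bp, 13219 bp and 13307 bp. At the other end were Smurf2, with 2727 bp, 4108 bp and 3436 bp, and Bambi, with 675 bp, 872 bp and 1160 bp.

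**Figure D3:**
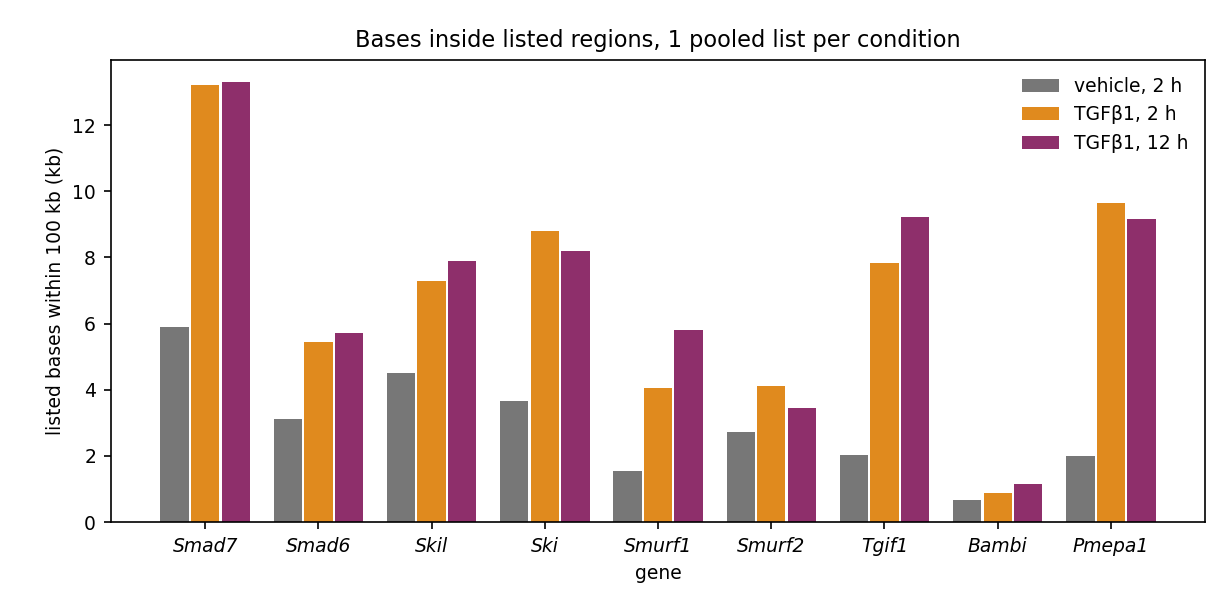
Bases inside listed regions within 100 kb of the 5′ end (kb) for each gene in the vehicle, 2 h and 12 h lists, 1 pooled list per condition and so without error bars. Pmepa1 and Tgif1 show the largest ratio of TGFβ1 to vehicle, and Smurf2 and Bambi the smallest at 2 h.

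Regions present before and after treatment were then compared by width. Gaps closed within a list count in the width, so the ratios depend on that step. Of the 40 regions in both the vehicle and the 2 h list, 36 were wider at 2 h (90%, 76.9 to 96.0), beside 82.9% of all 16042 such regions. Of the 39 in both the vehicle and the 12 h list, 38 were wider at 12 h (97.4%, 86.8 to 99.5), beside 83.7% of 15307. The median ratio of widths was 1.44 at 2 h and 1.72 at 12 h near the 9 genes, beside 1.25 and 1.28 over all regions. At 2 h the width was 2 or more times that in vehicle in 11 of the 40 (27.5%, 16.1 to 42.8), beside 16.8% of the 16042. At 12 h this held for 16 of the 39 (41%, 27.1 to 56.6), beside 19% of the 15307. Regions of the same gene are not independent, so these intervals may be too narrow. The regions narrower at 2 h were the 5′ region of Smad6, a region in Ski, 1 in Smurf1 and the promoter region of Prkci near Skil, and the one narrower at 12 h lay in Tgif1. Each of them measured at least 0.91 times its vehicle width.

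At the 5′ ends themselves, the vehicle list covered 6 of the 9 genes and each TGFβ list 7, beside 35.9%, 41.4% and 41.6% of all protein-coding genes. Smad7, Smad6, Skil, Smurf2, Bambi and Pmepa1 were covered in all lists. Smurf1 was covered in the TGFβ lists only. The nearest regions of Ski and Tgif1 lay 244 bp upstream and 183 bp inside the gene, and were in all 3 lists.

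**Figure D4:**
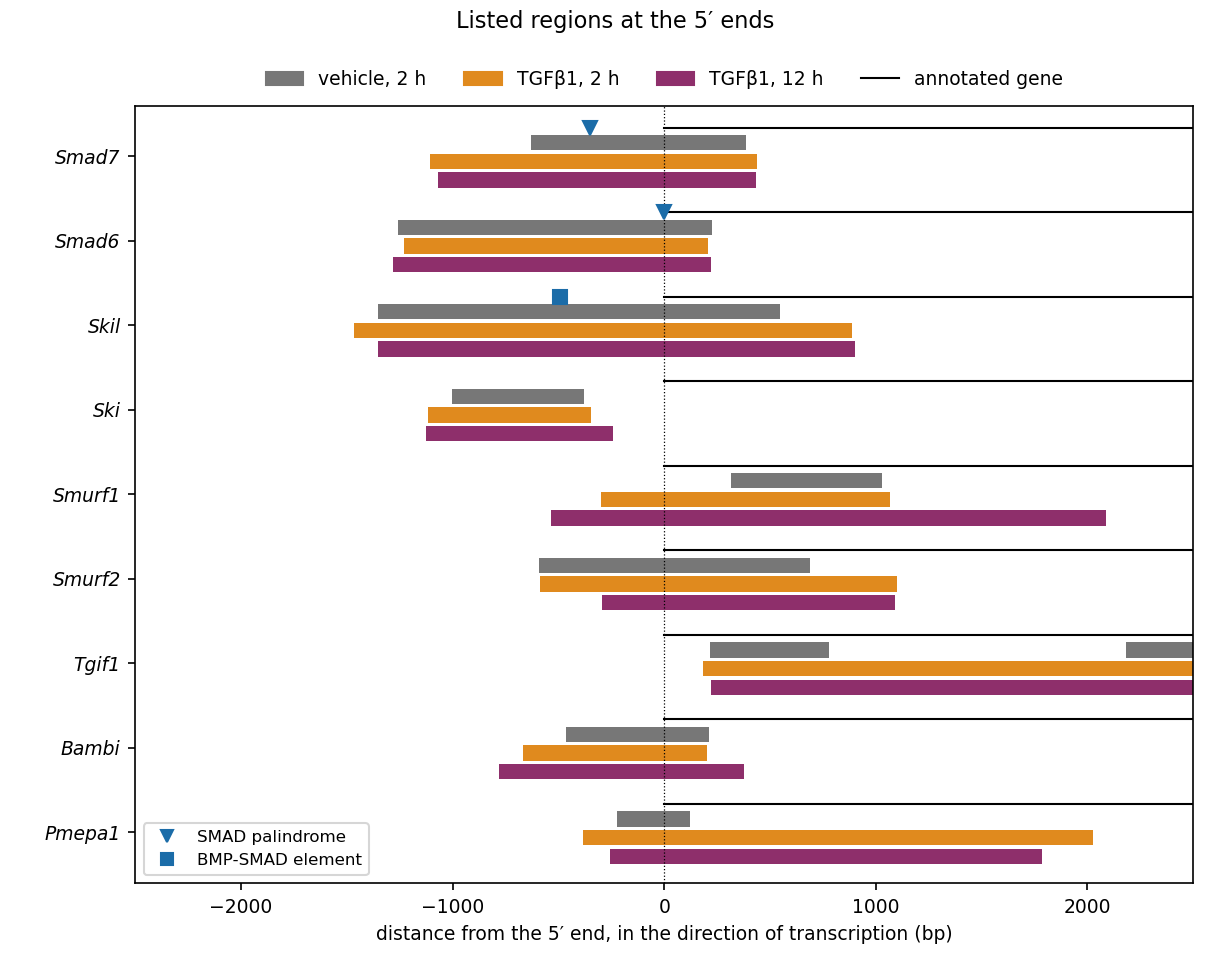
Regions of each list at the 5′ ends, by distance from the annotated 5′ end in the direction of transcription (bp, cut at 2500 bp to either side). Triangles mark the SMAD palindrome and the square the BMP-SMAD element. The vehicle bar is the shortest at Pmepa1 (350 bp, against 2413 bp after 2 h and 2043 bp after 12 h), and the 3 bars at Smad6 are nearly equal.

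Short sequence elements known from TGFβ target genes were searched for as exact matches on both strands, in 500 bp centered on each region and separately in whole regions. They were the AP-1 word TGACTCA, the SMAD palindrome GTCTAGAC, the CAGA box (AGCCAGACA or AGACAGACA), the BMP-SMAD element GGCGCCNNNNNGTCT and CTCF. No match of one element overlapped a match of another in the regions of the 9 genes. A match describes the letters only and is not evidence that a factor was bound.

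AP-1 was found in 31 of the 80 regions (38.8%, 28.8 to 49.7), beside 35.6% of all regions. Of the 19 regions of both TGFβ lists only, 10 had it (52.6%, 31.7 to 72.7), beside 47.3% of all regions of that pattern. The 19 all lay over 1000 bp from every start site, and of all regions of the pattern that did so 51.6% had AP-1. The CAGA box was found in 6 of the 80 regions (7.5%, 3.48 to 15.4), beside 3.63% of all, a value inside the interval. CTCF was found in 1, beside 4.03%. In whole regions the CAGA box was found in 10 of 80 (12.5%, 6.93 to 21.5), beside 4.83% of all whole regions. Wider regions hold more bases to search, and shares in whole regions were not adjusted for width. In the central 500 bp, the SMAD palindrome was found in 2, the 5′ region of Smad7 and an intronic region of Pmepa1, beside 0.819% of all regions. The BMP-SMAD element was found in 1, the 5′ region of Skil, beside 0.0811%. The palindrome was found in whole regions in 4 of 80, 1 each at Smad7 and Smad6 and 2 at Pmepa1, beside 1.23% of all whole regions. These counts are small, and the intervals are wide (for 4 of 80, 1.96% to 12.2%).

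Smad7 encodes the inhibitory SMAD that brings SMURF ligases to the type I receptor and competes with SMAD2 and SMAD3 for it. The gene starts at chr18:75527183 on the + strand. All lists shared 6 of its 13 regions, while 3 were in both TGFβ lists only, 3 in the 2 h list alone and 1 in the 12 h list alone. No other protein-coding gene has its 5′ end in the window, and 7.59% of all protein-coding genes had as many regions or more. The region over the 5′ end (chr18:75526078-75527623, with untranslated exon sequence) measured 1019 bp in vehicle, 1546 bp after 2 h and 1504 bp after 12 h. Most of the added width lay upstream, where the left edge was at 75526554 for vehicle, 75526078 for 2 h and 75526115 for 12 h. The SMAD palindrome, at 75526830 to 75526837 and 346 bp upstream of the 5′ end, was inside the region in all 3 lists.

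Of the further Smad7 regions in all lists, the one whose width differed most between vehicle and 12 h lay 67111 bp upstream in no protein-coding gene, with 362 bp in vehicle, 1403 bp after 2 h and 2040 bp after 12 h. The vehicle region was 1 interval, and those after 2 h and 12 h were joined from 2 and 3. An intronic region 17312 bp downstream measured 1622 bp, 3064 bp and 3071 bp. By contrast, a region 24042 bp upstream was nearly equal in all lists, with 1349 bp, 1440 bp and 1379 bp. A region 87746 bp downstream, in an intron of Ctif, had 1033 bp in vehicle, split into 2 parts, and 1926 bp and 1883 bp as 1 piece in the TGFβ lists. Each list held 2 intervals there, which the closing of gaps under 1000 bp joined in the TGFβ lists alone, so part of this contrast comes from that step. Of the 3 regions of both TGFβ lists only, the nearest lay 37477 bp downstream of the 5′ end and beyond the gene, with 703 bp after 2 h and 961 bp after 12 h. The others lay in introns of neighbors, with 611 bp and 694 bp in Dym and 307 bp and 363 bp in Ctif, and both held AP-1. The one in Dym also held a CAGA box. Listing at 2 h alone was also seen: a 351 bp region 4053 bp upstream with AP-1, an 811 bp region 42006 bp upstream with a CAGA box and a 438 bp region in Ctif were in the 2 h list alone.

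Smad6 encodes the inhibitory SMAD known mostly for restraining BMP receptors. Its 5′ end is at chr9:63869866 on the - strand. All lists shared 5 of its 7 regions, the 2 h list alone held 1, the 12 h list alone held 1, and none was in both TGFβ lists only. The region over the 5′ end measured 1485 bp in vehicle, 1437 bp after 2 h and 1508 bp after 12 h, so it was the 5′ region that differed least among the 9 genes. The regions around it differed more. At an exon of 1110036E04Rik, 27469 bp upstream, a region measured 226 bp in vehicle, 1384 bp after 2 h and 1511 bp after 12 h, 6.69 times the vehicle width and the highest 12 h ratio of the 80 regions. Each TGFβ region there was joined from 2 intervals, and the vehicle region was 1. An intronic region 3147 bp inside Smad6, likewise joined in the TGFβ lists, measured 350 bp, 916 bp and 858 bp. Both regions seen in 1 TGFβ list alone, with 317 bp after 2 h and 193 bp after 12 h, lay nearer to Lctl than to Smad6.

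The Smad6 palindrome spans the annotated 5′ end, base 63869866. Of the 4 palindromes, it is the one on a start site. The 30 bases at chr9:63869852-63869881 (mm9, + strand, opposite to the gene) are given with the palindrome in capitals, and all 3 lists covered them.
Smad6: atcatatgccaGTCTAGACactttggcggc

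Skil encodes SNON, a corepressor that binds SMAD complexes on DNA and is itself degraded when TGFβ signaling starts. Transcription starts, by the annotation, at chr3:30993980 on the + strand. All lists shared 7 of its 11 regions. Both TGFβ lists only held 2, the 2 h list alone 1 and the 12 h list alone 1. The region over the 5′ end (chr3:30992515-30994881) was the widest 5′ region in vehicle, with 1898 bp, and measured 2354 bp after 2 h and 2253 bp after 12 h. It held the BMP-SMAD element, at 30993481 to 30993495 and 485 bp upstream of the 5′ end, inside the region in all lists. The element joins a GC-rich word to the GTCT word that SMAD proteins contact, and the stretch chr3:30993421-30993555 (+ strand) is given with the element in capitals.
Skil upstream: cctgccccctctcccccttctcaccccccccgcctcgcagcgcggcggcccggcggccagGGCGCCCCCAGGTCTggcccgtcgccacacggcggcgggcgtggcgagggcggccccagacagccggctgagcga

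The upstream window of Skil holds the gene Prkci, and 6 of the 11 regions were nearest to Prkci or its 5′ end rather than to Skil. Among them, a region over a coding exon of Prkci, 55850 bp upstream of Skil, measured 336 bp in vehicle, 999 bp after 2 h and 1005 bp after 12 h. A region at 37310 bp upstream differed late only, with 237 bp in vehicle, 259 bp after 2 h and 703 bp after 12 h. Of the regions of both TGFβ lists only, the nearest lay in an intron of Skil, 14035 bp downstream of the 5′ end, with 202 bp after 2 h and 477 bp after 12 h. The other lay 38980 bp downstream, past the gene and nearer to Cldn11, with 628 bp and 701 bp. It held AP-1 and, 51 bases farther on, a CAGA box. The stretch chr3:31033301-31033427 (+ strand) is given with both in capitals, as the nearest region of its pattern with a match.
Skil downstream: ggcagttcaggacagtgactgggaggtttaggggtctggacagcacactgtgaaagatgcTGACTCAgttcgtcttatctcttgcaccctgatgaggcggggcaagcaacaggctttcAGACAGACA

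Ski encodes the founding member of the same corepressor family. The annotated 5′ end lies at chr4:154596701 on the - strand. It had the most regions, 15, of which all lists shared 6, both TGFβ lists only held 3, the 2 h list alone 4, the 12 h list alone 1, and the vehicle and 2 h lists 1. Few genes were denser: 3.8% of protein-coding genes had as many regions or more. No region covered the 5′ end. The nearest, upstream by 244 bp, measured 625 bp in vehicle, 772 bp after 2 h and 881 bp after 12 h. Ski was the gene with the most regions listed at 2 h alone. Of these, 3 lay in its introns, at 16301 bp, 24533 bp and 44040 bp from the 5′ end, with 461 bp, 234 bp and 253 bp. The intronic region at 57613 bp had 372 bp in vehicle and 445 bp after 2 h and was absent at 12 h, the only such region of the 80.

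Inside Ski, 4872 bp from its 5′ end, a region of both TGFβ lists only measured 1576 bp after 2 h and 524 bp after 12 h, the widest of the 19 at 2 h. It had no match in its central 500 bp, while the whole region held AP-1 at 154590664 to 154590670 and a CAGA box at 154591666 to 154591674. A further intronic region, 47908 bp inside, measured 550 bp in vehicle, 504 bp after 2 h and 1406 bp after 12 h. These regions of the same gene thus had opposite orders of the 2 h and 12 h widths. In both cases the wider of the 2 h and 12 h regions was joined from 2 intervals and the narrower was 1. The other regions of both TGFβ lists only lay 88248 bp and 95361 bp away in introns of Morn1, with 770 bp and 568 bp after 2 h and 1172 bp and 652 bp after 12 h, and both held AP-1. The one at 88248 bp is shown at chr4:154507859-154507985 (+ strand, AP-1 in capitals). It lies nearer to the start site of Morn1 than to that of Ski.
Ski: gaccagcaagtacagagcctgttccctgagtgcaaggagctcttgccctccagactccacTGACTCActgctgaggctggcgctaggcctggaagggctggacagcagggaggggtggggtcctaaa

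Tgif1 encodes a homeodomain corepressor that competes with coactivators for SMAD2 and SMAD3. Its annotated 5′ end is at chr17:71202886 on the - strand, but the transcripts of the gene start at 9 places. All lists shared 4 of its 10 regions, and 3 were in both TGFβ lists only and 3 in the 12 h list alone. The region next to the 5′ end had 920 bp in vehicle, split into 71200345 to 71200704 and 71202109 to 71202668, and 2425 bp after 2 h and 2530 bp after 12 h as 1 piece. The start sites at 71200471 and 71200555 were covered in all lists. The start site at 71201074, in the gap between both vehicle pieces, was covered in the TGFβ lists only. The TGFβ regions were joined from 3 intervals at 2 h and 4 at 12 h. Whether that start site lay in an interval or in a closed gap was not examined. Tgif1 also had the most regions listed at 12 h alone. They lay 5305 bp, 24658 bp and 76140 bp upstream, with 454 bp, 477 bp and 242 bp.

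Farther from Tgif1, a region 97422 bp downstream, over an exon of Gm16952 within Dlgap1, measured 498 bp in vehicle, 2680 bp after 2 h and 2667 bp after 12 h. This was the largest difference in width between vehicle and 12 h among the 80 regions, 2169 bp. Each TGFβ region there was joined from 3 intervals, and the vehicle region was 1. A region 55474 bp downstream in an intron of Dlgap1 measured 313 bp, 883 bp and 1103 bp. The nearest region of both TGFβ lists only lay 16334 bp downstream of the 5′ end, past the gene, with 527 bp and 515 bp. It is shown at chr17:71186323-71186449 (+ strand) with its AP-1 match in capitals.
Tgif1: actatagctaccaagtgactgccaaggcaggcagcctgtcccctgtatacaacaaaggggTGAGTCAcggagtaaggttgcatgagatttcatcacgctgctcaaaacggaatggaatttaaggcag

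Smurf1 encodes a HECT-type ubiquitin ligase that SMAD7 carries to the receptor. The start of the gene is chr5:145726716 on the - strand. All lists shared 2 of its 7 regions, and 4 were in both TGFβ lists only and 1 in the 12 h list alone. It was the one gene of the 9 whose annotated 5′ end was covered in the TGFβ lists and not in vehicle. The vehicle region spanned 145725685 to 145726398, inside the gene and short of the 5′ end. The 2 h region reached to 145727017 and the 12 h region to 145727252, and both covered the 5′ end. The widths were 714 bp, 1367 bp and 2623 bp, so that the 12 h region was 3.67 times as wide as in vehicle. Each TGFβ region there was joined from 2 intervals, and the vehicle region was 1. Among protein-coding genes, 9.03% had 4 or more regions of both TGFβ lists only.

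Of those 4 regions at Smurf1, 3 lay in its introns, 11083 bp, 15522 bp and 19321 bp from the 5′ end, and 1 lay 12633 bp upstream. At 2 h they measured 357 bp, 443 bp, 445 bp and 643 bp, and at 12 h 303 bp, 496 bp, 504 bp and 674 bp, in that order. They thus lay on both sides of the start site, the intronic ones close together. AP-1 was found at 11083 bp and 15522 bp. The nearer one is shown at chr5:145715490-145715616 (+ strand, AP-1 in capitals).
Smurf1: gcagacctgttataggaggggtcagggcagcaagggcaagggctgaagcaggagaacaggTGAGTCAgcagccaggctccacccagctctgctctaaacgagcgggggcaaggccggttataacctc

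Smurf2, which encodes the sister ligase, differed from Smurf1 in this. Its 5′ end is at chr11:106782029 on the - strand, and the region over it measured 1281 bp in vehicle, 1688 bp after 2 h and 1389 bp after 12 h. The gene body downstream of that region, which fills the rest of the window, held no listed region. Of 4 regions, 3 were in all lists, and 1, of 474 bp with AP-1 and 55556 bp upstream, was at 2 h alone. The other regions in all lists lay 78044 bp and 91497 bp upstream, the first over the promoter of Kpna2, with 816 bp, 1153 bp and 1166 bp.

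Pmepa1 encodes a membrane protein that binds receptor-activated SMADs and keeps them from the receptor. Its start is annotated at chr2:173102034 on the - strand. All lists shared 5 of its 12 regions. Both TGFβ lists only held 4, the 2 h list alone 1 and the 12 h list alone 2. The region over the 5′ end measured 350 bp in vehicle (173101910 to 173102259), 2413 bp after 2 h and 2043 bp after 12 h. Its 2 h width was 6.89 times that in vehicle, the highest 2 h ratio of the 80 regions. That width includes a closed gap, since the 2 h region was joined from 2 intervals and the vehicle region was 1. The added width lay mostly inside the gene, as far as 173100005 at 2 h and 173100246 at 12 h, and took in a further start site of the gene at 173101690. The part added after 2 h held 3 AP-1 matches, between 173100231 and 173100778, and the 12 h region took in all but the outermost of them. A CAGA box at 173101093 to 173101101 lay outside the vehicle region and inside both TGFβ regions.

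Every Pmepa1 region in all lists was wider in both TGFβ lists. Those inside the gene, 9552 bp and 12206 bp from the 5′ end, measured 460 bp and 304 bp in vehicle, 675 bp and 682 bp after 2 h, and 715 bp and 777 bp after 12 h. Those upstream, at 4526 bp and 44448 bp, measured 443 bp and 433 bp in vehicle, 835 bp and 1195 bp after 2 h, and 667 bp and 1050 bp after 12 h. Next to the intronic pair were regions of both TGFβ lists only, 14572 bp and 17616 bp from the 5′ end. The first measured 499 bp and 545 bp. The second measured 1370 bp after 2 h and 1375 bp after 12 h, the widest of the 19 at 12 h. The introns of Pmepa1 thus held 4 neighboring regions, 2 of them absent from the vehicle list.

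The wide intronic region held a SMAD palindrome, at 173083659 to 173083666, and was the only one of the 19 regions of both TGFβ lists only with one. A further palindrome lay 45411 bp upstream of the 5′ end, at 173147445 to 173147452, in a region that was in all lists. That palindrome was outside the vehicle region, which ended at 173147070, and inside the 2 h and 12 h regions, which ended at 173147718 and 173147531. Both are shown in 128 bases of the + strand, with the palindrome in capitals, at chr2:173083599-173083726 (intron) and chr2:173147385-173147512 (upstream).
Pmepa1 intron: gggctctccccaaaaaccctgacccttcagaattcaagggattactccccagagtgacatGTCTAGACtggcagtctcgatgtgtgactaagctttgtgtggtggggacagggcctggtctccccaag
Pmepa1 upstream: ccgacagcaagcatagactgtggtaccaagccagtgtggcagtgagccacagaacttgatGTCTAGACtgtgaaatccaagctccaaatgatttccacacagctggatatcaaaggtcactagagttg

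Of the 4 palindromes in the regions of the 9 genes, those of Smad7 and Smad6 were thus in listed chromatin in vehicle, and those of Pmepa1 in the TGFβ lists only. Smad7 and Smad6 carry theirs at the 5′ end and Pmepa1 at a distance. This order was noted after the matches had been seen, and with 4 matches it is a description.

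Bambi encodes a receptor-like protein without a kinase domain that blocks the assembly of active receptors. The gene begins at chr18:3507955 on the + strand. It had 1 region, over the 5′ end (chr18:3507172-3508331, with coding and untranslated exon sequence), of 675 bp in vehicle, 872 bp after 2 h and 1160 bp after 12 h. The nearest region outside the window lay 124266 bp away and was in all lists, so within 100 kb Bambi was without a distal region in every list. Of all protein-coding genes 85.7% had as many regions or more.

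The position of the regions of both TGFβ lists only was then set beside that of all regions of the same pattern. None of the 19 lay within 1000 bp of a start site (0%, up to 16.8%), beside 13.7% of all such regions. Of the 39 regions in all lists 17 did (43.6%, 29.3 to 59.0), beside 57.9%. The 19 lay in introns alone in 12 cases (63.2%, 41.0 to 80.9; all such regions 36%) and in no protein-coding gene in 7 (36.8%, 19.1 to 59.0; all 47.9%). The sets are unlike in these comparisons. The 19 were within 100 kb of a gene by choice, but only 8797 of all 11246 regions of the pattern lay that near a protein-coding gene. They lay downstream of the 5′ end in 15 cases (78.9%, 56.7 to 91.5), beside 48.4% of the pairs of any protein-coding gene with such a region within 100 kb. In 14 of 19 the start site of the member itself was the nearest one of a protein-coding gene, as in 28 of the 39 regions of all lists. Upstream lay 9 of the 10 regions at 12 h alone (90%, 59.6 to 98.2; all such pairs 49.7%) and 7 of the 11 at 2 h alone (63.6%, 35.4 to 84.8; all such pairs 49.1%). Regions of the same gene are not independent, so these intervals may be too narrow. The median width was 527 bp after 2 h and 524 bp after 12 h, beside 463 bp and 513 bp for all regions of that pattern. The median GC content of their 500 bp was 53.6%, beside 46.2% for all regions of that pattern over 1000 bp from every start site. The difference was not particular to this pattern. All 59 regions near the 9 genes that lay this far from start sites had 52.4%, beside 46.4% for all such regions.

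The receptors, ligands and signaling SMADs of the pathway were set beside the inhibitors. The 15 pathway genes had 117 regions, of which 29 were in both TGFβ lists only (24.8%, 17.8 to 33.3). The 9 target genes, among them Junb and Snai1, had 100 regions, of which 29 were (29%, 21.0 to 38.5). With 23.8% for the inhibitors, the shares of the 3 groups lay inside each other's intervals. Among pathway genes Smad3 had 6 regions of both TGFβ lists only and listed bases of 2398 bp, 8127 bp and 7611 bp. Smad4, in contrast, had none, and its bases numbered 1947 bp, 2642 bp and 2696 bp. The median ratio of listed bases at 2 h was 1.87 for the pathway genes and 2.01 for the targets, against 2.24 for the inhibitors, and at 12 h 2.03, 1.85 and 2.24. The marker genes of the check above lay higher than the inhibitors, with 2.52 and 2.44 for the 6 epithelial markers and 2.44 and 2.47 for the 6 of the 9 markers of other cell types that had vehicle bases. These medians rest on 15 genes or fewer and were not tested.

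The counts were then repeated with TGFβ lists cut to the length of the vehicle list. When each TGFβ list was shortened to its 18337 widest intervals, the number that the vehicle list holds, 7 of 54 regions near the 9 genes were in both TGFβ lists only (13%), beside 12.6% of all 24699 regions. Of 30 regions then in both the vehicle and the 2 h list 23 were wider at 2 h (76.7%), beside 80% of all 12599 such regions. Of 33 in both the vehicle and the 12 h list 29 were wider at 12 h (87.9%), beside 82.9% of 12079. Because the widest TGFβ intervals were kept, the shares wider than vehicle are not independent of this choice. Why the lists differ in length was not tested, nor was the part of list length in the differences at single genes.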

How the data were processed

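ATAC-seq was done in 6 NMuMG samples, 2 biological replicates for each of vehicle, TGFβ1 2 h and TGFβ1 12 h, with groups taken from the sample labels. The authors mapped reads to mm9 with the ENCODE ATAC-seq pipeline, called peaks with MACS2 2.1.2 and kept those reproducible between replicates (IDR), which gave 1 list per condition. The deposited lists hold positions (52626, 100459 and 105334 lines) and, in vehicle, a peak score of unstated scale, from 540 to 1000, as the authors left it. The same column numbers the lines in the TGFβ lists and was not used there. The lists hold no read counts, and the read totals stated by the study were not used here, so no precision from depth is given.

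Intervals repeated on several lines were counted once (18994, 36867 and 36874 intervals). Intervals under 150 bp were dropped, and gaps under 1000 bp were closed, first list by list and then in the union. Where a union region held several regions of a list, their widths were summed. Overlap needed 1 bp, and a region was counted at a gene when its nearest edge lay within 100 kb of the 5′ end. Coordinates are 1-based on mm9 (NCBIM37). Genes, start sites and exons came from GENCODE vM1 and sequences from the NCBIM37 genome. Shares have 95% Wilson intervals, for counting error only.

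The genes, lists and settings were chosen with earlier results of these data known. One gene of the list of targets is not reported here and was left out of its counts. The regions named for each gene were the one over or nearest to the 5′ end, the nearest and widest of both TGFβ lists only, the one with the largest difference in width between 12 h and vehicle, those lost from a TGFβ list and those with a SMAD palindrome. Further regions were named after their values were seen. Printed sequences hold the AP-1 or SMAD match of the nearest region of both TGFβ lists only with a match in its central 500 bp and no exon in the stretch. Those of Smad6, of Skil upstream and of Pmepa1 upstream were added after the matches were seen. Sequences on chromosome 18, which holds Smad7 and Bambi, were not printed. The interval and motif functions were tested on simulated data. Alternatives were other merge distances, widths, windows, overlaps, start sites and motif windows. Calculations used Python 3.11.15, numpy 2.4.6, scipy 1.17.1 and matplotlib 3.10.9.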

Additional observations from a re-analysis of the deposited data

How the results depend on the processing

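No paired analysis was possible because each condition has a single list made from both replicates, and for the same reason no replicate could be left out. Of 142 alternative values, 98 stayed within 1.5 times the count or inside the interval of the share, and 44 did not. The 5′ ends covered (6, 7 and 7) ranged from 4 in vehicle, with the narrower intervals dropped, to 9 in each list with regions within 1000 bp of the 5′ end counted. The share wider at 12 h stayed inside its interval under each of its alternatives. Windows of 50 kb and 200 kb changed the counts by construction: 24 and 63 regions in vehicle, 43 and 113 at 2 h, 41 and 115 at 12 h, 24 and 62 shared by all lists, 12 and 36 in both TGFβ lists only, 5 and 17 at 12 h alone, and at 50 kb 7 at 2 h alone and 0 in vehicle and 2 h. Listed bases were then 17394 and 44037 bp in vehicle, 40124 and 96958 bp at 2 h, and 41563 and 105393 bp at 12 h. With intervals under the median width of their list dropped, 19, 40 and 44 regions were left, 17 in all lists, 3 at 2 h alone, 6 at 12 h alone, 0 in vehicle and 2 h, and 14518, 37065 and 42037 bp, while both TGFβ lists only held 20 of 48 regions (41.7%, 28.8 to 55.7; all regions 28.1%). Shortening the TGFβ lists alone gave 40 and 44 regions, 37065 and 42037 bp, 7 regions in both TGFβ lists only, 3 at 2 h alone, 4 at 12 h alone, 0 in vehicle and 2 h, and 76.7% wider at 2 h. The regions of both TGFβ lists only numbered 29 without merging across gaps (28.7% of 101 regions; all regions 28.6%) and 32 with a reciprocal overlap of 50% (40%; all regions 33.8%), since regions then split or wide TGFβ regions no longer match narrow vehicle ones. Away from start sites, 22 regions were in all lists. Motif windows of 200 bp held AP-1 in 17 of 80 regions and in 5 of the 19, as fewer bases were searched.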
